A study of Mus musculus with 2 samples.

Results

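The genes described here belong to families that build the extracellular matrix, join cells to it and to each other, guide cells by contact, or cut and protect surface proteins. They were taken by symbol from the authors' deposited list of 886 genes that differed between mouse embryonic stem cells carrying Flag-tagged Prdm14 and cells carrying the Flag tag. The prefixes covered collagens, laminins, integrins, classical cadherins, protocadherins, Eph receptors, ephrins, semaphorins, plexins, ADAM and matrix metalloproteinases, TIMPs, serpins, thrombospondins, fibulins and fibrillins. They found 20 listed genes. Lama1, Col4a2 and Cdh2 were set aside by the rule, which left 17 of the 886 listed genes. Of these, 16 are described, all of them protein-coding and none at the lowest value of the table.

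The 46C cells used are mouse embryonic stem cells that carry a fluorescent reporter at Sox1, and were grown in medium with serum and LIF. Control cells overexpressed Flag and the other cells Flag-tagged Prdm14, a PR-domain regulator of pluripotency; the labels give 1 sample for each and name no promoter or clone. In the series' design text the tagged gene is gadd45g and not Prdm14. Here Prdm14 went from 3.296 TPM in Flag cells to 399 TPM in Prdm14 cells, and Gadd45g from 21.6 to 3.57 TPM. RNA was measured by sequencing and deposited as 1 mean TPM per condition, a level scaled to transcript length and library size, so levels of different genes can be set side by side. No value per replicate is in the table, so no SD is given, the read depth is unknown, and every difference stands without a replicate check. "Higher" and "lower" mean higher or lower in Prdm14 cells than in Flag cells, and every fold is the ratio of the authors' 2 means.

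As background, laminins are trimers of an alpha, a beta and a gamma chain that form the sheet of the basement membrane, and integrins are the paired receptors that hold cells to such matrix. Semaphorins signal to plexins and ephrins to Eph receptors, mostly where membranes touch, and both systems steer axons and keep cell groups apart. ADAM and matrix metalloproteinases cut surface and matrix proteins, and TIMPs block them.

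Of the 16 genes, 10 were lower and 6 higher in Prdm14 cells. This is 62.5% lower, beside 47.2% lower and 52.8% higher over all listed genes, and that difference was not tested. They lie in 11 families. In both families with more than 1 of these genes (ephrins and semaphorins), genes went in both directions. The lower genes had a median fold of 2.85 and the higher genes of 2.43, beside 3.03 and 2.56 over all listed genes. Differences of at least 4-fold were found in 4 of the 16 genes (25.0%), beside 25.1% of all listed genes. The 4 were Sema6a, Serpinf1, Mmp25 and Plxnd1, all lower. Over all listed genes, 16.4% were at least 4-fold lower and 8.69% at least 4-fold higher. With 1 TPM added to both means only Sema6a (7.60-fold) stayed past 4-fold. Mmp25 was then 3.83-fold, Serpinf1 3.06-fold and Plxnd1 2.83-fold lower. Summed over the 16 genes, the level was 227 TPM in Flag cells and 157 TPM in Prdm14 cells.

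**Figure D1:**
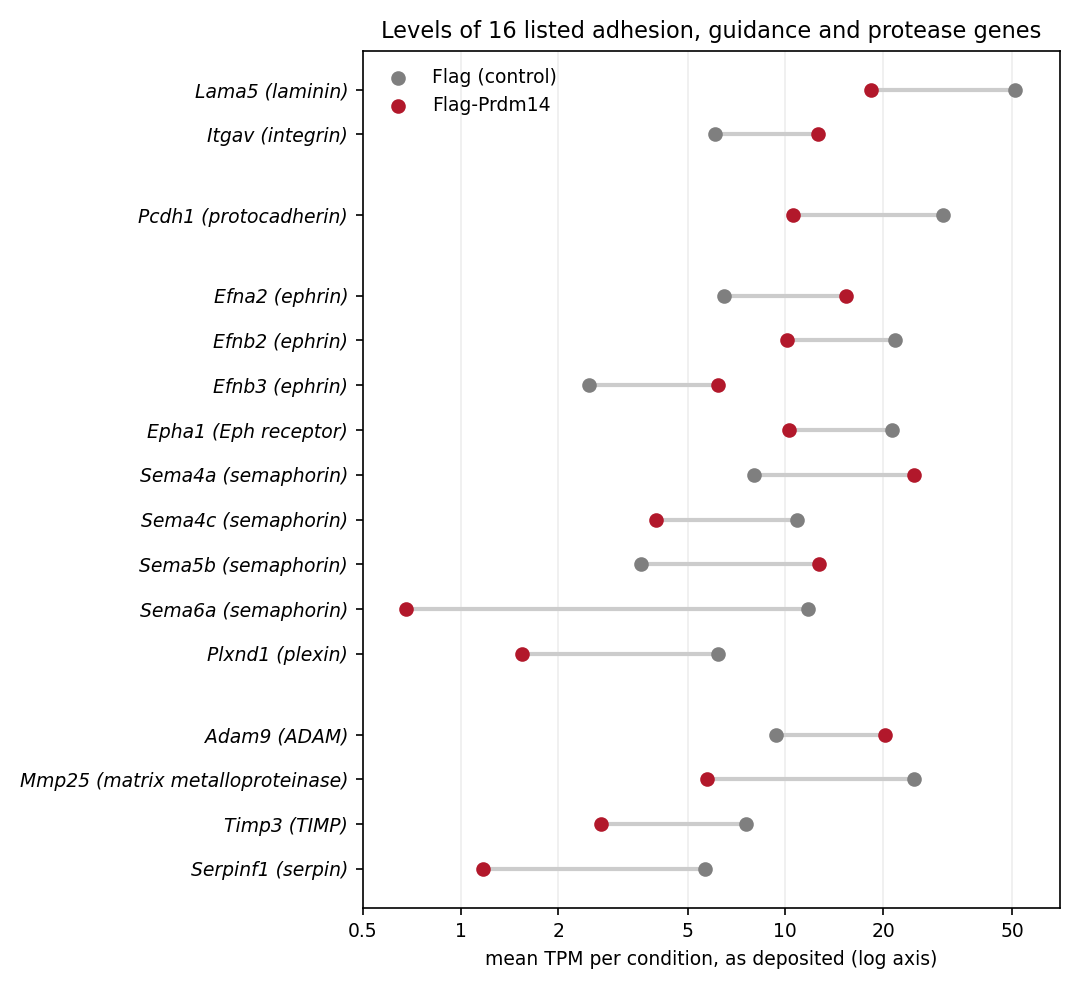
Mean TPM (log axis) of each of the 16 genes in Flag cells (grey) and Prdm14 cells (red), with a line joining both values of a gene and the family in parentheses; there are no error bars because the table holds 1 mean per condition. Lama5 is the highest gene in Flag cells at 50.8 TPM and Sema4a in Prdm14 cells at 24.8 TPM, and Sema6a spans the widest distance.

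The order of the genes by level differed between the conditions. In Flag cells Lama5, Pcdh1, Mmp25, Efnb2 and Epha1 had the 5 highest levels, between 50.8 and 21.3 TPM, and each of these was lower in Prdm14 cells. In Prdm14 cells Sema4a came first at 24.8 TPM, followed by Adam9, Lama5, Efna2 and Sema5b, of which only Lama5 had been among the first 5 in Flag cells. Every listed gene had to differ by at least 2-fold, so a listed gene that is high in one condition tends to be lower in the other. The change of order thus follows in part from the selection of the table. Whether neighbours in these orders differ beyond replicate spread cannot be said, since no spread is in the table.

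Lama5 (ENSMUSG00000015647, chromosome 2, 180176373 to 180225859, minus strand, GRCm38) encodes the laminin alpha-5 chain, a chain widely used in the basement membranes of epithelia and of the early embryo. It went from 50.8 TPM in Flag cells to 18.4 TPM in Prdm14 cells, 2.77-fold lower, with a q-value of 2.67e-53 in the authors' deposited table. It had the highest level of the 16 genes in Flag cells and the third highest in Prdm14 cells. Lama1, the alpha-1 chain that the rule sets aside, was lower as well, at 6.54 and 2.16 TPM. Its q-value in the authors' deposited table was 0.0295, close to the largest there at 0.0427.

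Itgav was the only listed integrin of 31 annotated genes with an integrin prefix. It encodes the alpha-v subunit, which pairs with several beta subunits and binds vitronectin, fibronectin and latent TGF-beta. Itgav (ENSMUSG00000027087, chromosome 2, 83724397 to 83806916, plus strand) went from 6.09 to 12.6 TPM, 2.07-fold higher, and had the smallest absolute log2 fold change of the 16 genes at 1.05, close to the smallest in the whole table at 1.00. Its q-value of 1.04e-04 in the authors' deposited table was the largest of the 16. Exons of the antisense-strand gene Gm13684 overlap 5.901% of its exonic length. No member of the thrombospondin, fibulin or fibrillin families was listed. The single listed collagen was Col4a2, one of the genes set aside (7.46 TPM in Flag and 2.36 TPM in Prdm14 cells). The q-value of Col4a2 in the authors' deposited table was 0.0119. A gene that is not in the table has no value to report.

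In the cadherin superfamily, Pcdh1 was the listed protocadherin, of 69 annotated coding genes with that prefix. Pcdh1 (ENSMUSG00000051375, chromosome 18, 38185914 to 38212053, minus strand) encodes a single-gene protocadherin of epithelia that lies outside the clustered protocadherin arrays. It took the second highest level of the 16 genes in Flag cells, 30.5 TPM, and was at 10.5 TPM in Prdm14 cells, 2.90-fold lower. Cdh2, N-cadherin, set aside by the rule, was the single listed gene of 23 with a cadherin prefix, at 8.05 and 3.03 TPM.

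The guidance genes were the largest group, with 9 of the 16 genes, 5 lower and 4 higher. Their summed level was 92.5 TPM in Flag cells and 85.7 TPM in Prdm14 cells. That the genes within such a sum shifted follows from the selection of the table, which holds no gene that differed by less than 2-fold. The same holds for a shift in the ratio of 2 such genes that went in opposite directions.

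Of 20 annotated semaphorin genes, 4 were listed, 2 in each direction. Sema6a (ENSMUSG00000019647, chromosome 18, 47235598 to 47368870, minus strand), a transmembrane class 6 semaphorin that signals to A-type plexins, went from 11.8 TPM in Flag cells to 0.679 TPM in Prdm14 cells. This was 17.3-fold lower, or 7.60-fold with 1 TPM added to both means, and it took position 30 among the 418 lower genes by size of change. Its q-value of 2.55e-62 in the authors' deposited table was the smallest of the 16. Sema4c (ENSMUSG00000026121, chromosome 1, 36548639 to 36558349, minus strand), a class 4 semaphorin whose receptor is plexin-B2, went from 10.9 to 3.99 TPM, 2.73-fold lower. Exons of D430040D24Rik on the opposite strand overlap 7.27% of the exonic length of Sema4c.

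The other listed semaphorins were higher. Sema4a (ENSMUSG00000028064, chromosome 3, 88435959 to 88461182, minus strand), a class 4 semaphorin known from immune cells and the retina, went from 8.03 to 24.8 TPM, 3.09-fold higher. The microRNA gene Mir7011 overlaps 1.35% of its exonic length on the same strand. Sema5b (ENSMUSG00000052133, chromosome 16, 35541145 to 35664732, plus strand), a class 5 semaphorin with thrombospondin-type repeats, went from 3.61 to 12.7 TPM, 3.53-fold higher, the largest increase of the 16 genes. Together the 4 semaphorins summed to 34.3 TPM in Flag cells and 42.2 TPM in Prdm14 cells. Sema6a made up 34.3% of this sum in Flag cells and 1.61% in Prdm14 cells, while Sema4a went from 23.4% to 58.8%. Sema4a and Sema4c, members of the same class, differed in direction: the ratio of Sema4a to Sema4c was 0.737 in Flag cells and 6.22 in Prdm14 cells.

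Plxnd1 (ENSMUSG00000030123, chromosome 6, 115954811 to 115995005, minus strand), the plexin through which Sema3e guides growing vessels, was the listed plexin of 9 annotated. It went from 6.21 to 1.55 TPM, 4.02-fold lower, or 2.83-fold with 1 TPM added to both means. No class 3 semaphorin was in the table. Whether the listed semaphorins of other classes can bind plexin-D1 was not examined.

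Ephrins showed the same mixed pattern, with 3 of 8 annotated genes listed. Efnb2 (ENSMUSG00000001300, chromosome 8, 8617434 to 8661242, minus strand), the transmembrane ephrin-B2 that is known from arteries and neural crest, went from 21.8 to 10.1 TPM, 2.16-fold lower. Efnb3 (ENSMUSG00000003934, chromosome 11, 69554092 to 69560205, minus strand), the midline ephrin-B3 of the spinal cord, went from 2.49 to 6.22 TPM, 2.497-fold higher. Efna2 (ENSMUSG00000003070, chromosome 10, 80179482 to 80190010, plus strand), a lipid-anchored A-type ephrin, went from 6.47 to 15.3 TPM, 2.37-fold higher. The 3 summed to 30.7 TPM in Flag cells and 31.7 TPM in Prdm14 cells, and Efnb2 made up 70.8% of the sum in the former and 31.9% in the latter. The ratio of Efnb2 to Efnb3 went from 8.74 to 1.62.

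Epha1 (ENSMUSG00000029859, chromosome 6, 42358487 to 42373268, minus strand) was the listed Eph receptor of 14 annotated, and encodes a tyrosine kinase that binds A-type ephrins. It went from 21.3 to 10.3 TPM, 2.08-fold lower. The receptor and the listed A-type ephrin thus changed places in level: Epha1 stood at 3.29 times Efna2 in Flag cells, and Efna2 at 1.496 times Epha1 in Prdm14 cells. A shift in this ratio follows from the selection of the table, since the 2 genes went in opposite directions. Exons of Zyx on the opposite strand overlap 6.01% of the exonic length of Epha1.

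**Figure D2:**
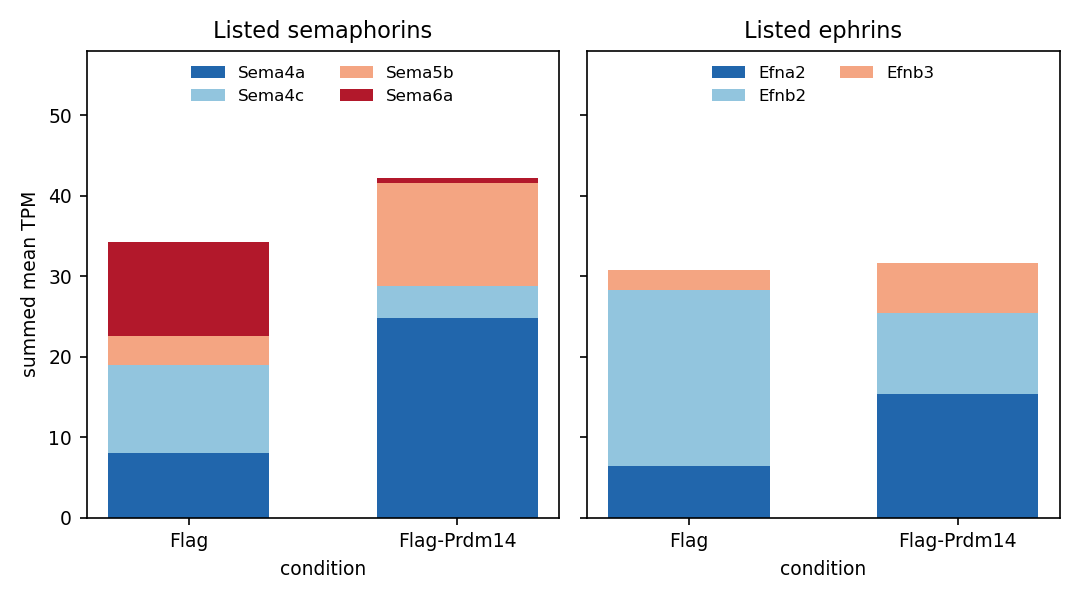
Stacked bars of summed mean TPM (axis from 0) of the 4 listed semaphorins (left) and 3 listed ephrins (right) in Flag and Prdm14 cells, 1 mean per condition. The sums are 34.3 and 42.2 TPM for semaphorins and 30.7 and 31.7 TPM for ephrins, while Sema6a and Efnb2 take smaller parts and Sema4a, Sema5b and Efna2 larger parts in Prdm14 cells.

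Among proteases and inhibitors, 3 genes were lower and Adam9 was higher. Mmp25 (ENSMUSG00000023903, chromosome 17, 23628311 to 23645277, minus strand), a membrane-anchored matrix metalloproteinase known from leukocytes, went from 24.9 to 5.74 TPM, 4.33-fold lower, and was the listed gene of 22 with its prefix. Adam9 (ENSMUSG00000031555, chromosome 8, 24949611 to 25016927, minus strand), a transmembrane protease of the disintegrin and metalloproteinase family that sheds surface proteins, went from 9.36 to 20.3 TPM, a ratio of 2.16. It was the listed gene of 58 with the Adam prefix. Mmp25 was at 2.65 times the level of Adam9 in Flag cells, and Adam9 at 3.53 times the level of Mmp25 in Prdm14 cells.

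Both listed inhibitor-family genes were lower. Timp3 (ENSMUSG00000020044, chromosome 10, 86300372 to 86349506, plus strand), the matrix-bound TIMP that blocks metalloproteinases of both families, went from 7.57 to 2.71 TPM, 2.79-fold lower. Timp3 lies inside the gene Syn3 on the opposite strand, and Syn3 exons overlap 21.3% of its exonic length, so its value is uncertain where reads were counted without strand. Serpinf1 (ENSMUSG00000000753, chromosome 11, 75409769 to 75422701, minus strand), a secreted serpin that inhibits vessel growth and is not itself a protease inhibitor, went from 5.66 to 1.17 TPM, 4.82-fold lower, or 3.06-fold with 1 TPM added. It was the listed gene of 61 with the Serpin prefix. The ratio of Adam9 to Timp3 went from 1.24 to 7.47, and that of Mmp25 to Timp3 from 3.28 to 2.12. Each of these genes had to differ by at least 2-fold to be listed. A shift in the ratio of genes that went in opposite directions thus follows from the selection of the table.

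Promoter sequences are shown for genes at both ends of the range: 3 of the genes that were at least 4-fold lower (Plxnd1, Mmp25, Serpinf1) and the 2 with the largest increases (Sema4a, Sema5b). Each is the RefSeq promoter window of 300 bases, 250 before and 50 after a start, on GRCm38.p6 and read 5′ to 3′ on the gene's strand. Capitals mark CG dinucleotides, the sites of DNA methylation. Sema4a has 4 annotated starts in that table, and the one nearest the 5′ end of the gene is shown. The start used lies inside the gene coordinates given above by 217 bases for Sema5b, 78 for Serpinf1 and 8 for Mmp25. Most of the Sema5b window thus lies within the gene.
Plxnd1 (GRCm38, chr6:115994956-115995255, minus strand): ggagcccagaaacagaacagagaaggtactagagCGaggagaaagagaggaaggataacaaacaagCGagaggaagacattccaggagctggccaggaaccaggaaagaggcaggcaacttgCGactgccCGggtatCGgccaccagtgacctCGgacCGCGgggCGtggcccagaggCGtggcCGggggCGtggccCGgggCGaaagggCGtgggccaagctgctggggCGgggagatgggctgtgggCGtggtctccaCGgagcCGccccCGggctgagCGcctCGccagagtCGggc
Mmp25 (GRCm38, chr17:23645220-23645519, minus strand): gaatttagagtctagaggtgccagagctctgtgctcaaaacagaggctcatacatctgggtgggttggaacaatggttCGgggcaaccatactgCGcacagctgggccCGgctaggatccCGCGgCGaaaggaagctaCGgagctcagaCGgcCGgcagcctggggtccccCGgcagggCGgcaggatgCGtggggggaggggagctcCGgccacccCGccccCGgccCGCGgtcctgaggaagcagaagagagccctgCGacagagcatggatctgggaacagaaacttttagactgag
Serpinf1 (GRCm38, chr11:75422574-75422873, minus strand): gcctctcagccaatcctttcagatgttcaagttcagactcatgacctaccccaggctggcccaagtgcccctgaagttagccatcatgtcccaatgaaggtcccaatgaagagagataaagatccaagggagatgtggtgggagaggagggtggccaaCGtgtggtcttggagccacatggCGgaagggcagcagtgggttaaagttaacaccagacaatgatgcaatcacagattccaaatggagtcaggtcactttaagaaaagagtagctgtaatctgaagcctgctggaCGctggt
Sema4a (GRCm38, chr3:88461133-88461432, minus strand): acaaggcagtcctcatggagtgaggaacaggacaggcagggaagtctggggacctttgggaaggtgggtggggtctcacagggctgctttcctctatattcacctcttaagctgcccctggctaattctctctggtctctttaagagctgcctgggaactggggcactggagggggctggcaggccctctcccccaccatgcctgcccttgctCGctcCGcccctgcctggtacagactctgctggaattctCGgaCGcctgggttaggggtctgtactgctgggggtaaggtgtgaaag
Sema5b (GRCm38, chr16:35541112-35541411, plus strand): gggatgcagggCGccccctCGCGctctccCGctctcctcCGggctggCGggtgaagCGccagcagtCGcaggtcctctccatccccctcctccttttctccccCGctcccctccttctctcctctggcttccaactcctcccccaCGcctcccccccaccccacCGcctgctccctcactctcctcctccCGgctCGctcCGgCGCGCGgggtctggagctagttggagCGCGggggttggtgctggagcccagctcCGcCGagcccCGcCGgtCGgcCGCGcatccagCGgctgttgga

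Promoters with few and with many CG dinucleotides occurred in both directions. The window held 23 CG in Plxnd1, 18 in Mmp25 and 3 in Serpinf1, which were lower, and 4 in Sema4a and 27 in Sema5b, which were higher. Windows were found for 12 of the 16 genes, with a median of 23.5 CG, beside 18 over the 645 listed genes with a window and 7.0 over all 32851 windows. The GC box GGGCGG, searched on both strands, was in 10 of the 12 windows, in 62.3% of those of listed genes and in 35.7% of all windows; the letters hold a CG themselves. The TATA box TATAAA was in 1 of the 12 (Efnb2), in 9.46% of the windows of listed genes and in 13.6% of all windows. The letters GGTCTCTAA, a motif described for Prdm14 in mouse embryonic stem cells, were in none of the 12 windows. They were in 3 of the 645 windows of listed genes (0.465%) and in 0.256% of all windows. These windows hold too few matches to compare. A match or its lack says nothing here about binding.

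**Figure D3:**
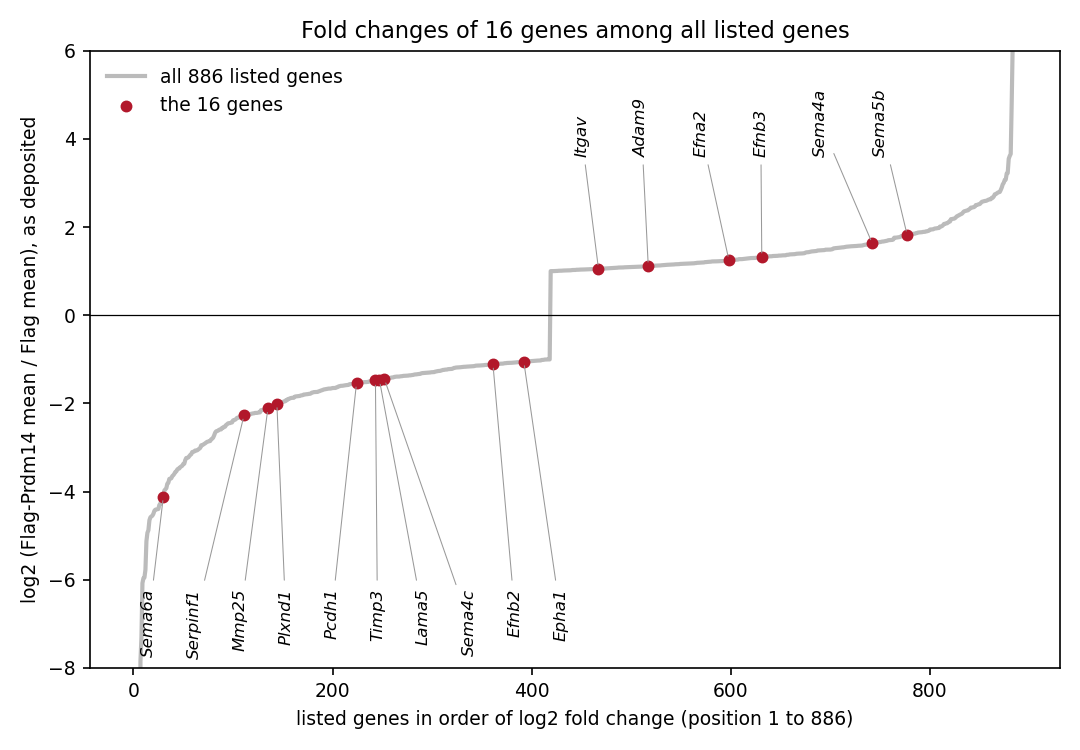
Deposited log2 fold change (vertical axis) of all 886 listed genes in rising order (grey line), with the 16 genes in red. The axis runs from -8 to 6 and leaves out 6 genes below and 4 above it; the 16 genes spread over the range, from Sema6a at -4.11 to Sema5b at 1.82, and the step at 0 is the fold limit of the table.

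The size of the changes in the 16 genes was like that of the table. Their median absolute log2 fold change was 1.47 and that of all listed genes 1.47. The median signed value was -1.28 against 1.03 over all listed genes, but no listed gene has an absolute value under 1.00, so the sign of such a median turns on a few genes. The 16 genes lie on 10 chromosomes, with 2 (Adam9 and Efnb2, in opposite directions) on chromosome 8 and none on chromosome X.

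Within 1 Mb, counted from start to start on the annotation, 10 of them had other listed genes, in 24 pairs, of which 5 went in the same direction. This is 20.8%, beside 65.8% of the pairs counted in the same way from all listed genes; the difference was not tested. Efnb3 and Sema4a hold 9 of the 19 opposite pairs, and without them 5 of 15 pairs (33.3%) went in the same direction. Mmp25 lay 32.2 kb from Bicdl2, a gene for a dynein adaptor of the BICD family (7.42 to 0.899 TPM, 8.26-fold lower), and 50.9 kb from Cldn6, a tight junction claudin (147 to 30.6 TPM, 4.801-fold lower). All 3 were lower, while Tbc1d24, the other listed neighbour of Mmp25 at 547 kb, was higher (5.99 to 12.5 TPM, 2.08-fold). Genes between them that are not listed have no value. Efna2 had the higher gene Plk5 within 177 kb. Sema4a, by contrast, was higher beside 4 lower listed genes, of which Rab25, a GTPase of epithelial vesicle recycling, was nearest at 106 kb (22.9 to 3.79 TPM, 6.06-fold lower). Efnb3 was higher beside 5 lower ones, among them the claudin gene Cldn7. The neighbours were taken by position from the listed genes, so each had to differ by at least 2-fold, and only some of them are named.

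**Figure D4:**
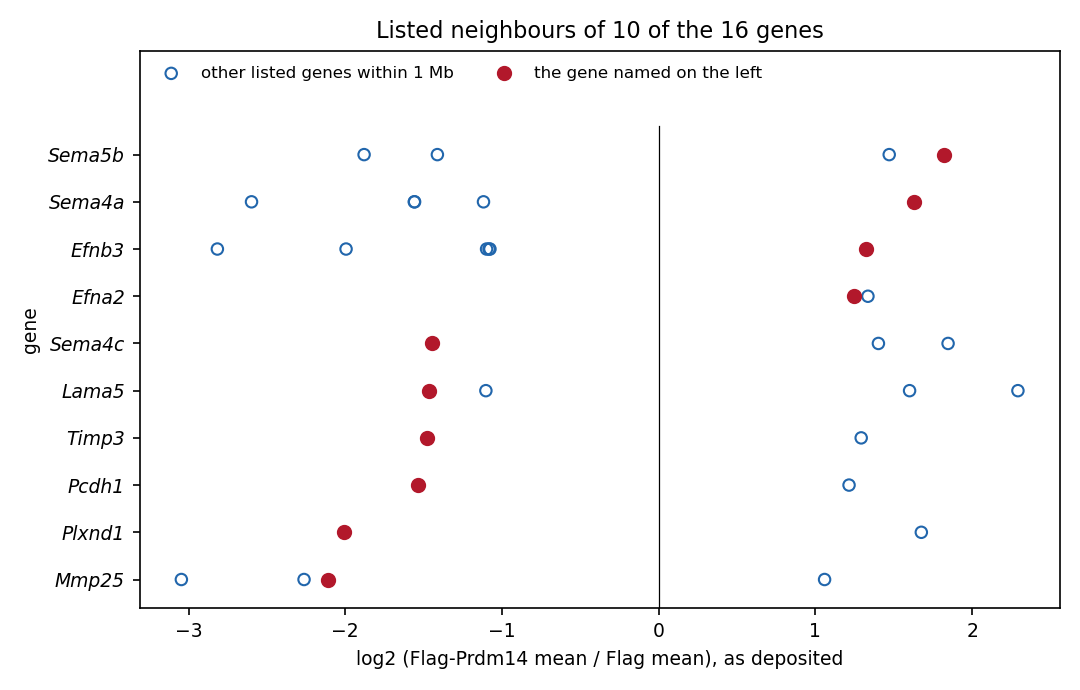
Deposited log2 fold change (horizontal axis) of the 10 of the 16 genes that have other listed genes within 1 Mb (red), with those neighbours as open blue circles. Of 24 pairs, 5 lie on the same side of 0; the 5 neighbours of Efnb3 and the 4 of Sema4a all lie on the other side.

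The families were not listed evenly. Of 385 annotated coding genes with 1 of the 16 prefixes, 5.19% were in the table, beside 3.79% of all coding genes of the annotation. Listed were 3 of 8 ephrins (37.5%), 1 of 4 TIMPs and 4 of 20 semaphorins. The share was 1.45% for protocadherins, 1.64% for serpins, 1.72% for the Adam prefix and 2.22% for collagens. No gene entered the table with both means under 5.01 TPM, so these shares do not compare how often expressed genes differed.

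Partners of these families were read from 6 lists of 172 symbols in all. Of these, 3 symbols have no match in the annotation and so could not be found, and 13 genes were listed, 8 higher and 5 lower (38.5% lower). Over all listed genes 47.2% were lower, and 3.79% of all coding genes of the annotation were listed. The differences from these shares were not tested. For the basement membrane and matrix list, 3 of 28 matched genes were listed. Nid1, the nidogen that links laminin to collagen IV networks, went from 20.6 to 70.6 TPM, a ratio of 3.42, opposite to Lama5. Tgfbi, a secreted integrin ligand, went from 1.97 to 23.05 TPM, 11.7-fold higher, and Smoc1, a calcium-binding basement membrane protein, from 20.4 to 9.16 TPM, 2.23-fold lower. Of 26 cell-matrix adhesion partners, Parvb, which joins integrin-linked kinase to actin, was listed at 19.5 and 41.1 TPM, 2.11-fold higher, the direction of Itgav.

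Among 30 other guidance genes, Unc5b, a netrin receptor, went from 35.6 to 7.43 TPM, 4.79-fold lower. Robo4, an endothelial relative of the Slit receptors, went from 2.85 to 6.998 TPM, 2.46-fold higher, and Dpysl3, a cytoplasmic mediator of growth cone collapse, from 30.4 to 66.4 TPM, 2.18-fold higher. Of 34 other proteases and inhibitors, 3 were higher and 3 lower. Mme, the surface peptidase neprilysin, went from 3.06 to 15.4 TPM, 5.03-fold higher, and Pcsk6, a proprotein convertase that activates Nodal, from 15.02 to 50.9 TPM, 3.39-fold higher. Plaur, the urokinase receptor, went from 20.8 to 4.82 TPM, 4.32-fold lower, and Prss8, the epithelial protease prostasin, from 11.03 to 2.95 TPM, 3.73-fold lower. None of 21 matched collagen-processing genes and none of 30 catenin and other cell-cell adhesion genes was listed. With 3.79% of all coding genes listed, none in lists of this length is close to that share.

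Markers of cell types that use these families were looked for in the same table. None of 16 fibroblast and feeder markers and none of 6 endothelial and blood markers was listed, where 3.79% of all coding genes of the annotation were. At that share, none in lists this short is unremarkable and says nothing about such cells. Of 10 embryonic stem cell markers 5 were listed, all higher (Klf4, Zfp42, Nanog, Esrrb and Tfcp2l1), beside 52.8% higher over all listed genes. Of 15 primitive and parietal endoderm markers, Cubn (7.36 to 0.134 TPM) and Dab2 (17.9 to 1.53 TPM) were lower. Of 9 neuroectoderm markers, Tubb3 (66.0 to 138 TPM) and Sox21 (1.04 to 8.34 TPM) were higher. The matrix genes (1 higher, 1 lower) and the guidance genes (4 higher, 5 lower) went in both directions. The part of such cells in the values of the 16 genes was not tested, and in bulk RNA fewer cells of a type and less RNA per cell cannot be told apart.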

How the data were processed

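Mean TPM for 886 genes in both conditions, with a log2 fold change, p-value and q-value, were computed and deposited by the authors. The submitters' processing notes list mm10 and Bowtie 0.12.2; the program behind TPM, the test, strand use and the number of values in each mean are not given in these sources. The deposited log2 fold change equals the log2 ratio of the deposited means to within 4.09e-11. The table holds selected genes (absolute log2 fold change from 1.00, larger mean from 5.01 TPM, q-value up to 0.0427), so all these genes had to differ. TPM keeps no read number, so depth and counting error are unknown.

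All 886 IDs matched symbols and coordinates of GENCODE M21 (GRCm38, the same assembly as mm10). Of 17 genes found by symbol prefix, 1 is not reported here and the others are named; of each partner list, all listed genes were named, or the 4 with the largest fold where over 5 were listed. Members and lists were chosen with earlier results of these data known. No test was made: with 1 mean per condition, counts and medians are set beside those of all listed genes. Gene selection was tested on simulated data. Values were computed with pandas 2.3.3 and numpy 2.4.6 in Python 3.11.15 and drawn with matplotlib 3.10.9.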

Additional observations from a re-analysis of the deposited data

How the results depend on the processing

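The labels give 1 sample per condition, but the table holds means without replicate values, so no replicate could be left out. No paired analysis was possible because the table holds 1 mean per condition. Of the 16 genes, 6 were higher and 10 lower, and neither number moved by more than 1.5 times under the 2 q-value limits, the 2 TPM limits and the 2 pseudocounts, without overlapping genes, with Lama1, Col4a2 and Cdh2 added, and without chromosome 8 (an alternative chosen after seeing the data; none of the 16 is on chromosome X). Among genes at or past 2 on the log2 scale they became 0 and 4, beside 77 higher and 145 lower over all listed genes. The median log2 ratio of -1.28 was -2.19 at that limit, beside -2.27 over all listed genes at the same limit. It was -1.08 with larger means of at least 10 TPM, -1.11 with smaller means of at least 1 TPM and -1.47 without overlapping genes. It was -1.45 with the 3 genes added and -1.46 without chromosomes 8 and X. Over all listed genes the median was 1.06 and 1.05 under the 2 TPM limits and 1.03 without chromosomes 8 and X. The median of the described genes stayed negative in each alternative, since more of the genes kept were lower than higher. It could not turn at the limit of 2, where all genes kept were lower, or with the 3 genes added, which were all lower. At the limit of 2, the guidance genes had 0 higher and 2 lower (from 4 and 5), the matrix genes 0 and 0 (from 1 and 1), the protocadherin count fell from 1 lower to 0, the single higher protease gene was lost (0), and the partner lists had 2 higher and 2 lower (from 8 and 5). Without overlapping genes, 3 guidance genes were lower and 0 matrix genes higher. With larger means of at least 10 TPM, 1 protease or inhibitor gene was lower. With a pseudocount of 1 and a log2 ratio of at least 1, 0 matrix genes were higher, since Itgav (0.94) no longer reached it, nor did Epha1 (-0.99). With the 3 genes added, 3 matrix genes and 2 cadherin genes were lower. Fewer or more genes kept is what each of these alternatives does by construction.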
